A study of Mus musculus with 4 samples.

Results

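Periportal hepatocyte genes were examined in the livers of ADAR2 KO and wild-type mice on a high-fat diet (HFD). The 10 genes, Hal, Gls2, Cyp2f2, Hsd17b13, Etnppl, Aldh1b1, Ctsc, Pigr, Sdsl and Cdh1, were chosen by name and not by their values, and all 10 were found among the 25655 genes of the count table. Earlier results of these data were known when the 10 genes were chosen. The series holds 4 liver RNA-seq libraries, 2 from ADAR2+/+/GluR-B R/R mice (HFD-WT) and 2 from ADAR2-/-/GluR-B R/R mice (HFD-KO). All mice received the HFD for 12 weeks from an age of 5 weeks. Both genotypes thus carried the R/R allele of GluR-B, which lets mice without ADAR2 survive, on a mixed B6129S background, and the deletion was present in every tissue and not in hepatocytes alone. No library of mice on a normal diet was analysed here. Nothing in the labels states that the libraries of a group came from separate mice or from pools, so each p-value measures only the spread between these libraries.

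Hepatocytes differ along the axis from the portal vein to the central vein of the liver lobule. Periportal cells receive oxygen-rich and nutrient-rich blood first and are known for amino acid breakdown, urea synthesis and gluconeogenesis, while pericentral cells, under Wnt signals from the central vein, make glutamine, bile acids and many drug-metabolizing enzymes. Several of the 10 genes encode enzymes of amino acid and nitrogen use: Hal (histidine ammonia-lyase, the first step of histidine breakdown), Gls2 (the liver-type glutaminase, which frees ammonia from glutamine) and Sdsl (serine dehydratase-like). Others act on lipids, aldehydes or foreign compounds: Hsd17b13 (a lipid droplet enzyme), Etnppl (ethanolamine-phosphate phospho-lyase), Aldh1b1 (a mitochondrial aldehyde dehydrogenase) and Cyp2f2 (a cytochrome P450). The remaining genes encode a lysosomal protease, Ctsc (cathepsin C), the receptor that carries IgA across epithelia into bile, Pigr, and E-cadherin, Cdh1. RNA of whole liver carries no position, so the zone of these genes is background here and was not measured.

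Promoter windows of RefSeq on GRCm38.p6 were found for 7 of the 10 genes, in 8 windows because Etnppl has more than one start. The bases before the start site are shown for Hal, the member that differed most between libraries of a genotype, for Aldh1b1 and Hsd17b13, which had the lowest p-values between genotypes, and for Cyp2f2, the member with the highest mean level per length. Each is given 5′ to 3′ on the strand of the gene and ends at the base before the start site, and capitals mark a match to a motif.
Hal, chr10:93488518-93488767, plus strand: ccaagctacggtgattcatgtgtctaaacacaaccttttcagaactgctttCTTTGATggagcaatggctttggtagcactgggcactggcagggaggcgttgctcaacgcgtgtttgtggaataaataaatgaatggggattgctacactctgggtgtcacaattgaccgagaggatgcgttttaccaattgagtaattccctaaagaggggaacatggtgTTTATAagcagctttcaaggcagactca
Aldh1b1, chr4:45798772-45799021, plus strand: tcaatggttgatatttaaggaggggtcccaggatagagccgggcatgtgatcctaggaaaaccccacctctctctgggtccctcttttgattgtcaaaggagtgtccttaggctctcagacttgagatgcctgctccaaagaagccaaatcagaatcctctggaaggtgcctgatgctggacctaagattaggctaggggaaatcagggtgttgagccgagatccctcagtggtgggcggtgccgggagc
Hsd17b13, chr5:103977389-103977638, minus strand: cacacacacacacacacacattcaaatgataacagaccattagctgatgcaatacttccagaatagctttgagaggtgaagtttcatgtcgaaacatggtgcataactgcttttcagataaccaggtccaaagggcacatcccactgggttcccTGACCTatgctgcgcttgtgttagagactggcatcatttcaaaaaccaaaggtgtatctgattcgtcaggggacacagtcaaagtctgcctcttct
Cyp2f2, chr7:27119705-27119954, plus strand: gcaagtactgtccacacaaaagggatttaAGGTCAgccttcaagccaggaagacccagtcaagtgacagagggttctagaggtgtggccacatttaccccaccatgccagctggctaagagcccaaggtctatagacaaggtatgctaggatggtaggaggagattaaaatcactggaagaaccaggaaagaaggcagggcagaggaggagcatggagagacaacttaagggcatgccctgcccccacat

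The motifs searched, on both strands, were ATCAAAG (a form of the TCF/LEF site), AGGTCA (bound by nuclear receptors), TATAAA (the core of many promoters) and TGACGTCA (the cAMP response element), with CACGTG (an E-box) as the last. Hal held ATCAAAG on the opposite strand from -199 to -193 and TATAAA on the opposite strand from -28 to -23, counted from the start site. These letters occur in 3.21% and 12.4% of all 32851 windows of the same length. Hsd17b13 and Cyp2f2 each held AGGTCA, which 14% of all windows hold, and CACGTG was found in Pigr alone among the members (6.02% of all windows). TGACGTCA (1.55% of all windows) matched in 0 of the 8 member windows, which says only that these letters are not there.

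The libraries held between 24480798 and 28691330 counted reads. Values are given as CPM, the reads of a gene scaled to the size of its library after TMM adjustment. Genotypes were compared with edgeR (quasi-likelihood test, Benjamini-Hochberg adjusted p under 0.05) over 12967 genes, those with enough reads for its filter. For 1 gene on its own, 2 libraries against 2 allow no p smaller than 0.333 in a two-sided exact permutation. Adarb1, which encodes ADAR2, had 15.7 and 19.8 CPM in HFD-WT and 6.23 and 9.55 CPM in HFD-KO livers. Its adjusted p was 0.159 by edgeR and 0.00042 by DESeq2. In edgeR it was 0.0025 with no filter and 0.040 with the replicate number as a block, but 0.139 with the library size alone and 0.165 with DESeq2's size factors. With 1 library left out, the log2 fold change of Adarb1 lay between -1.51 and -0.89. Its direction thus followed the labels, while reads were still counted on it in both HFD-KO libraries. The hepatocyte marker Alb stood between 52676 and 66104 CPM, and 7 hepatocyte markers summed to 89613 and 92772 CPM in HFD-WT, 90277 CPM in HFD-KO 1 and 113990 CPM in HFD-KO 2. Immunoglobulin and B cell markers set HFD-KO 1 apart, with a summed level of 125 CPM over 8 genes against 27.8 CPM in HFD-KO 2 and 17.3 to 19.5 CPM in HFD-WT. All results on the 10 genes are therefore given with the value of each library.

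Levels were compared between genes as RPKM, which divides by exon length. Cyp2f2 (ENSMUSG00000052974, chromosome 7 from 26819334 to 26833085) had the highest mean, at 352 to 411 RPKM over the libraries, and Pigr (ENSMUSG00000026417, chromosome 1 from 130754421 to 130779986) followed at 330 to 376 RPKM, so their ranges overlapped and Pigr was the higher of the pair in HFD-KO 2. Hsd17b13 (ENSMUSG00000034528, chromosome 5 from 104103306 to 104125276) stood at 167 to 266 RPKM and Gls2 (ENSMUSG00000044005, chromosome 10 from 128030326 to 128045873) at 71.0 to 97.4 RPKM, each apart from its neighbours in the order. These most abundant genes were an oxidizing enzyme, an IgA receptor, a lipid droplet enzyme and a glutaminase.

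Hal (ENSMUSG00000020017, chromosome 10 from 93324630 to 93355166) and Aldh1b1 (ENSMUSG00000035561, chromosome 4 from 45799022 to 45804604) overlapped, at 36.0 to 65.3 and 30.3 to 43.3 RPKM. Etnppl (ENSMUSG00000019232, chromosome 3 from 130411097 to 130431170) stood at 10.8 to 14.7 RPKM, Ctsc (ENSMUSG00000030560, chromosome 7 from 87927293 to 87960096) at 8.36 to 13.7 RPKM and Sdsl (ENSMUSG00000029596, chromosome 5 from 120596251 to 120610875) at 5.41 to 9.03 RPKM, each overlapping the next. Cdh1 (ENSMUSG00000000303, chromosome 8 from 107329983 to 107396878) was the lowest, at 1.89 to 2.65 RPKM. Its smallest count was 246 reads and that of Sdsl 233 reads, for which counting error alone is 6.38% and 6.55% of the value, while it is at most 2.79% for the other members. The plot of levels shows the order and the spread of each gene.

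**Figure D1:**
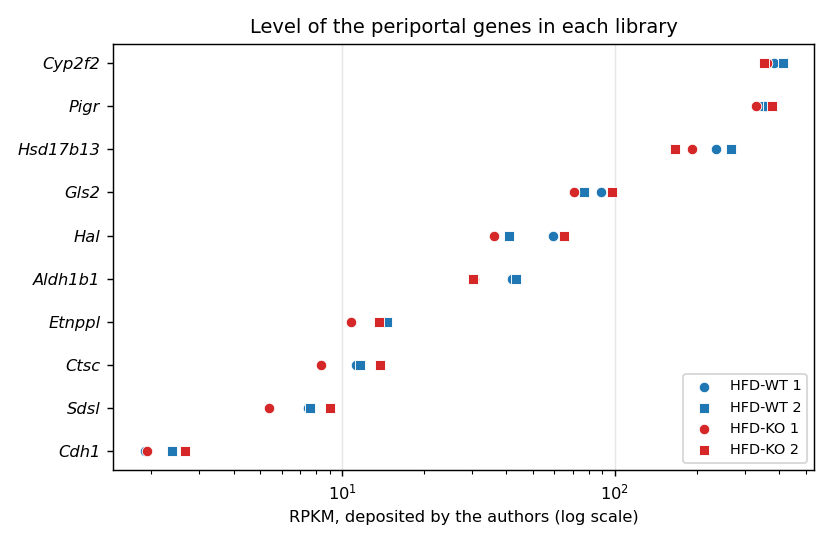
Level of each periportal gene in RPKM on a log axis, with 1 point per library (blue, HFD-WT; red, HFD-KO; circle, replicate 1; square, replicate 2). The genes run from Cyp2f2 at 352 to 411 RPKM down to Cdh1 at 1.89 to 2.65 RPKM, and the spread of a gene between libraries is small beside the distance between most genes.

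Of the 10 periportal genes, 0 passed the adjusted threshold between genotypes by edgeR, against 0.0771% of all genes tested (0.054% higher and 0.0231% lower in HFD-KO). Hsd17b13 and Aldh1b1 had an unadjusted p under 0.05, both lower in HFD-KO livers, against 8.98% of all genes in either direction, 4.25% higher and 4.73% lower. Both genes passed the adjusted threshold when DESeq2 (Wald test) took the place of edgeR, a setting in which 0.887% of all genes passed. Relative to HFD-WT, the log2 fold change in HFD-KO was below 0 for 5 members and above 0 for 5, with a median of -0.0040 over the members and 0.0068 over all genes tested, and 48.4% of all genes lay below 0. Over all genes, 551 were higher and 613 lower by the unadjusted p. Scaling by library size alone turned this split to 346 higher and 894 lower, the median over all genes to -0.04 and the number of members below 0 to 6. The interval of each fold change is drawn in the plot of differences between genotypes.

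**Figure D2:**
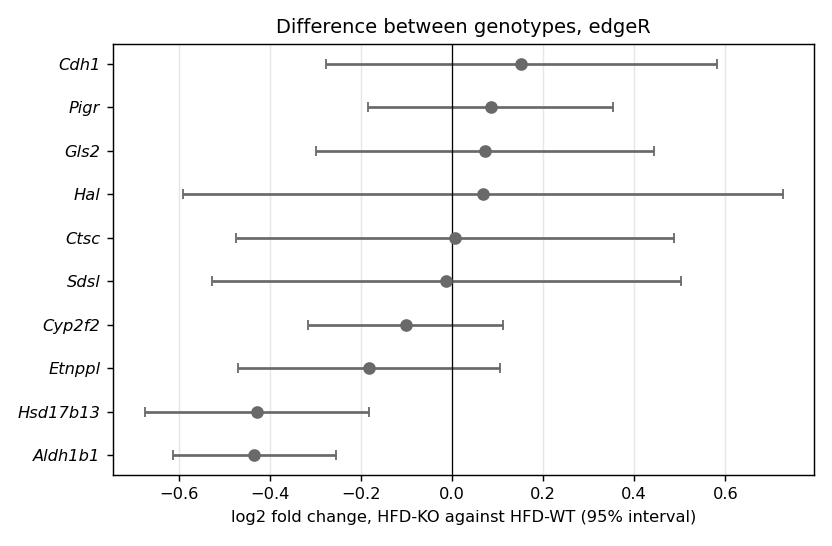
Log2 fold change between HFD-KO and HFD-WT for each periportal gene, HFD-KO over HFD-WT, with its 95% interval from edgeR's quasi-likelihood fit. The intervals of Aldh1b1 and Hsd17b13 lie below 0, from -0.61 to -0.26 and from -0.67 to -0.18, and those of the other 8 genes cross 0.

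Aldh1b1, whose enzyme oxidizes acetaldehyde and other aldehydes in mitochondria, had 103 and 105 CPM in the HFD-WT libraries and 76.7 and 77.1 CPM in the HFD-KO libraries. Both HFD-KO libraries were below both HFD-WT libraries, and the libraries of a genotype were almost equal. The log2 fold change was -0.43 (standard error 0.076, unadjusted p = 0.0006, adjusted p = 0.167 by edgeR), which is a level lower by 26.0%, and it ranked 49 of all genes by p. It stayed between -0.48 and -0.42 under every alternative run. By edgeR the adjusted p was 0.121 with the library size alone and 0.239 with the replicate number as a block.

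Hsd17b13, whose protein sits on lipid droplets of hepatocytes, had 542 and 604 CPM in HFD-WT and 453 and 399 CPM in HFD-KO livers. The groups did not overlap, and HFD-KO 2 was the lowest library. The log2 fold change was -0.43 (standard error 0.10, unadjusted p = 0.0042, adjusted p = 0.289 by edgeR), a level lower by 25.7%. Without HFD-KO 1 the log2 fold change was -0.52, and without HFD-KO 2 it was -0.34.

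Hsd17b11, the close relative of Hsd17b13 that lies 12351 bases away on the same strand of chromosome 5, had 363 and 346 CPM in HFD-WT and 312 and 333 CPM in HFD-KO livers. Its groups did not overlap either, at a log2 fold change of -0.14 (adjusted p = 0.689 by edgeR). Per length, Hsd17b13 stood 2.26 and 2.64 times as high as Hsd17b11 in HFD-WT and 2.20 and 1.81 times as high in HFD-KO livers. The ratio was thus lower in both HFD-KO libraries.

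Cyp2f2, whose enzyme activates naphthalene and other foreign compounds, had 762 and 810 CPM in HFD-WT and 737 and 728 CPM in HFD-KO livers. It was the third member whose groups did not overlap, and all 3 were lower in HFD-KO, against 40.8% of all genes without overlap, 20.3% lower and 20.5% higher. The difference of Cyp2f2 was small, with a log2 fold change of -0.10 (95% interval -0.32 to 0.11, adjusted p = 0.786 by edgeR). Etnppl, whose enzyme breaks down phosphoethanolamine, had 70.2 and 71.8 CPM in HFD-WT and 54.7 and 70.5 CPM in HFD-KO livers. Only HFD-KO 1 was apart from the others, and the log2 fold change of -0.18 (adjusted p = 0.707 by edgeR) became -0.01 without that library and -0.38 without HFD-KO 2. Phykpl, its paralog, which acts on phosphohydroxylysine, had 11.9 and 12.0 CPM in HFD-WT and 12.95 and 12.0 CPM in HFD-KO livers.

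Hal, the entry to histidine breakdown, was the least even of the 10 genes. It had 337 and 230 CPM in HFD-WT and 209 and 385 CPM in HFD-KO livers, so that the lowest and the highest library were both HFD-KO. Its log2 fold change between genotypes was 0.07 with a 95% interval from -0.59 to 0.73 (adjusted p = 0.966 by edgeR). Without HFD-KO 1 it was 0.44, and without HFD-KO 2 it was -0.44.

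The later steps of histidine breakdown are run by Uroc1, Amdhd1 and Ftcd, and Amdhd1 lies 4033 bases from Hal on the opposite strand. Amdhd1 (imidazolonepropionase) had 161 and 135 CPM in HFD-WT and 145 and 177 CPM in HFD-KO livers, and like Hal it was higher in HFD-WT 1 than in HFD-WT 2 and highest in HFD-KO 2. Uroc1 (urocanate hydratase) had 512 and 509 CPM in HFD-WT and 412 and 454 CPM in HFD-KO livers, without overlap and with a log2 fold change of -0.24 (unadjusted p = 0.034, adjusted p = 0.509 by edgeR). Of these 4 genes, 0 passed the adjusted threshold, 1 was lower at an unadjusted p under 0.05, and all 4 were higher in HFD-KO 2 than in HFD-KO 1.

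Gls2 had 266 and 227 CPM in HFD-WT and 217 and 302 CPM in HFD-KO livers, in the same order of libraries as Hal. Its log2 fold change was 0.07 (95% interval -0.30 to 0.44, adjusted p = 0.926 by edgeR). A stretch of 97 bases of Gls2 is shared with Spryd4 on the opposite strand, and the sources used here do not state whether counting used strand. Spryd4 had between 21.5 and 23.0 CPM, far below Gls2. Glul, the pericentral enzyme that makes glutamine from ammonia, stood between 1696 and 1877 CPM with a log2 fold change of -0.06 (adjusted p = 0.892 by edgeR). Among 7 genes of glutamine and glutamate use or transport, 0 passed the adjusted threshold and 1, the transporter Slc38a2, was higher at an unadjusted p under 0.05 (log2 fold change 0.30, adjusted p = 0.510 by edgeR), with 0.14 when HFD-WT 1 was left out and 0.47 when HFD-WT 2 was.

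Sdsl had 12.0 and 12.0 CPM in HFD-WT and 8.85 and 14.99 CPM in HFD-KO livers, from 233 to 358 reads. HFD-KO 1 lay below and HFD-KO 2 above both HFD-WT libraries, and the log2 fold change was -0.01 (95% interval -0.53 to 0.50, adjusted p = 0.990 by edgeR). Sds, the serine dehydratase that turns serine into pyruvate, lies 3715 bases away on the opposite strand and is itself known as periportal. It had 172 and 187 CPM in HFD-WT and 99.4 and 145 CPM in HFD-KO livers, with no overlap (by edgeR, log2 fold change -0.55 with a standard error of 0.16, unadjusted p = 0.012 and adjusted p = 0.400). Without HFD-KO 1 its log2 fold change was -0.30, and without HFD-KO 2 it was -0.85. Both genes were higher in HFD-KO 2 than in HFD-KO 1. Per length, Sds stood 14.5 and 15.7 times as high as Sdsl in HFD-WT and 11.4 and 9.80 times as high in HFD-KO livers.

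Ctsc, which trims and activates other proteases in lysosomes and granules, had 64.0 and 65.1 CPM in HFD-WT and 48.7 and 81.0 CPM in HFD-KO livers. As for Sdsl, the HFD-KO libraries lay on either side of an even HFD-WT pair, and the log2 fold change was 0.01 (95% interval -0.48 to 0.49, adjusted p = 0.995 by edgeR). It was 0.33 without HFD-KO 1 and -0.41 without HFD-KO 2, so its direction depended on which HFD-KO library was kept. It was also slightly below 0, at -0.04, with the library size alone as scaling. Ctsc is known to be made by macrophages as well as hepatocytes. Of 15 macrophage markers, 14 had a log2 fold change below 0, against 48.4% of all genes tested. Of these, 11 were lower at an unadjusted p under 0.05 by edgeR, against 4.73% of all genes. The summed level of the markers was 595 and 747 CPM in HFD-WT and 506 and 452 CPM in HFD-KO livers. This sum was lowest in HFD-KO 2, where Ctsc was highest, and HFD-KO 2 was the lowest library for 10 of the 15 markers. The part of macrophages in the level of Ctsc was not tested. Fewer macrophages cannot be told apart from less RNA per macrophage in whole liver. Of 11 cathepsin genes, 1 was lower at an unadjusted p under 0.05, Ctss, a macrophage cathepsin (log2 fold change -0.56, adjusted p = 0.405 by edgeR, and between -0.33 without HFD-WT 2 and -0.77 without HFD-WT 1), and 0 passed the adjusted threshold.

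Pigr had 1531 and 1422 CPM in HFD-WT and 1451 and 1681 CPM in HFD-KO livers. The groups overlapped, with a log2 fold change of 0.08 (95% interval -0.18 to 0.35, adjusted p = 0.863 by edgeR). The cargo of its receptor is IgA joined by the J chain. Igha, the IgA heavy chain, had 0.552 and 0.691 CPM in HFD-WT and 1.48 and 3.39 CPM in HFD-KO livers (log2 fold change 1.96, unadjusted p = 0.0036, adjusted p = 0.275 by edgeR). Jchain had 1.48 and 1.05 CPM in HFD-WT and 8.21 and 1.72 CPM in HFD-KO livers (log2 fold change 1.97, adjusted p = 0.445 by edgeR). The fold change of Jchain rested on HFD-KO 1, at 0.43 without that library and 2.68 without HFD-KO 2. That of Igha was 2.44 and 1.25 in these fits, and it passed with DESeq2 (adjusted p = 0.047). Both genes were higher in each HFD-KO library than in each HFD-WT library, as were 20.5% of all genes tested, while the groups of Pigr overlapped. Igha stood below every member in CPM, so its counting error was larger than theirs.

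Cdh1 had 8.98 and 11.1 CPM in HFD-WT and 9.34 and 13.02 CPM in HFD-KO livers, an overlap with a log2 fold change of 0.15 (95% interval -0.28 to 0.58, adjusted p = 0.846 by edgeR). Cdh2, the N-cadherin of hepatocytes, stood between 123 and 139 CPM. Per length, Cdh1 stood at 0.0721 and 0.0993 of Cdh2 in HFD-WT and at 0.0801 and 0.119 of it in HFD-KO livers. Bile duct cells also carry E-cadherin and Pigr. Their defining markers Krt19 and Epcam stood at 0.982 to 1.17 and 1.09 to 1.71 CPM, and of 10 bile duct markers Cftr and Ggt1 were too low to be tested. The summed level of the 10 markers, most of it from Spp1, was 87.2 and 106 CPM in HFD-WT and 78.3 and 66.5 CPM in HFD-KO livers. Without Spp1, left out after the values were seen, the other 9 markers summed to 22.9 and 22.5 CPM in HFD-WT and 24.5 and 23.7 CPM in HFD-KO livers, so the direction of the sum rested on Spp1. The part of bile duct cells in the level of Cdh1 was not tested.

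The HFD-KO libraries differed from each other by more than the genotypes did for 7 of the 10 genes, a share not far from the 58.8% of all genes tested. Relative to the mean of HFD-WT, HFD-KO 1 was below both HFD-WT libraries for 8 genes, against 35.6% of all genes tested. HFD-KO 2 was above both for 6 genes, namely Hal, Gls2, Sdsl, Ctsc, Pigr and Cdh1, against 38.6% of all genes tested. HFD-KO 2 was higher than HFD-KO 1 for 8 genes, against 49.2% of all genes, by 1.84 times for Hal, 1.69 times for Sdsl, 1.66 times for Ctsc and 1.39 times for both Gls2 and Cdh1. The exceptions were Cyp2f2 and Hsd17b13, and Aldh1b1 was higher by only 0.01 on the log2 scale. The 3 genes whose groups did not overlap were thus the ones with the most even HFD-KO libraries.

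**Figure D3:**
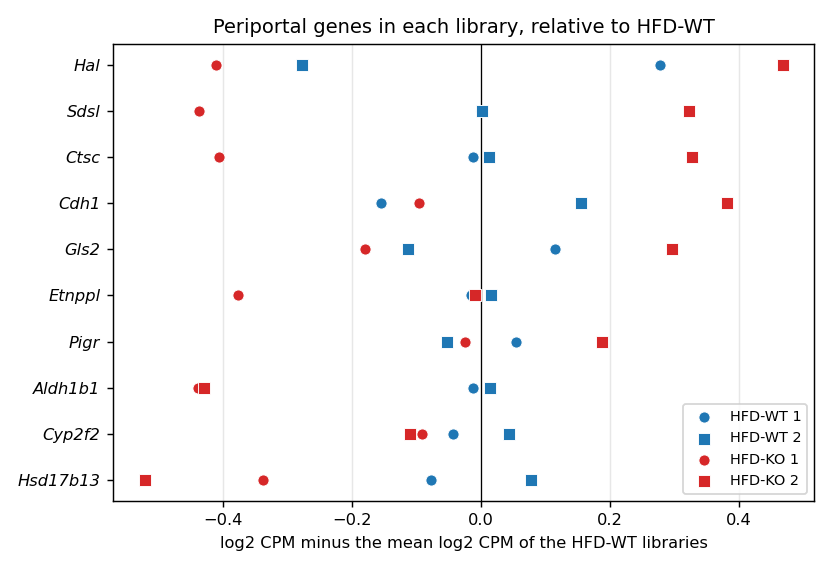
Log2 CPM of each periportal gene in each library minus the mean log2 CPM of the HFD-WT libraries (blue, HFD-WT; red, HFD-KO; circle, replicate 1; square, replicate 2), with genes ordered by the difference between the HFD-KO libraries. For the upper genes the red circle and the red square stand on either side of 0 or apart from each other, while for Aldh1b1, Cyp2f2 and Hsd17b13 both lie to the left of the blue points.

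Over the 9277 genes with a mean of at least 5 CPM, a minimum that every member passed, the median size of the log2 difference was 0.12 between the HFD-KO libraries and 0.10 between the HFD-WT libraries. Over the 10 members it was 0.42 and 0.10. Hal, with a difference of 0.88 between the HFD-KO libraries and 0.56 between the HFD-WT libraries, exceeded 99.0% and 98.9% of those genes. Sdsl and Ctsc exceeded 98.5% and 98.3% of them between the HFD-KO libraries but only 1.002% and 13.9% between the HFD-WT libraries. Each of these is a difference between 2 single libraries, so it has no error of its own beyond counting.

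**Figure D4:**
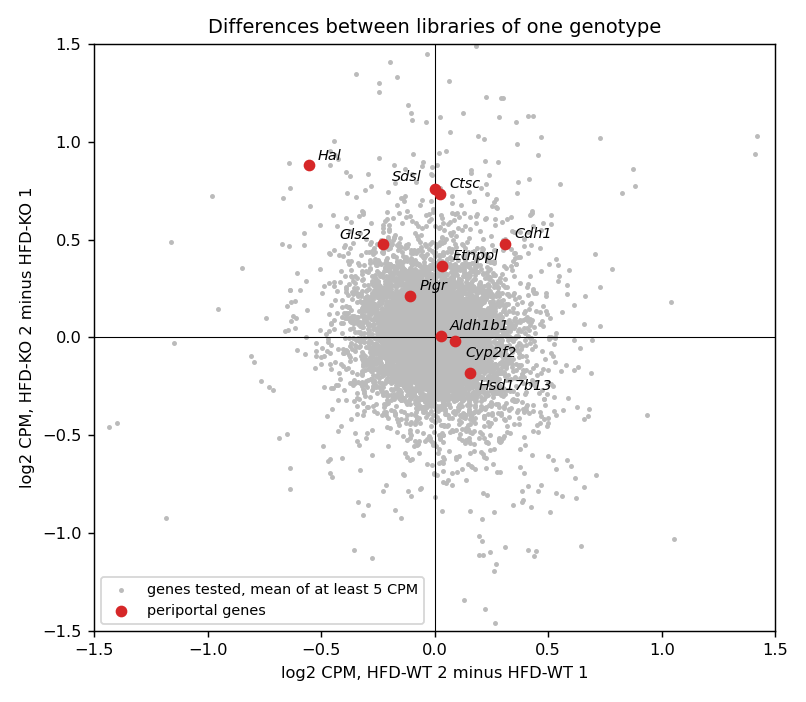
Log2 difference between the HFD-WT libraries (x axis) and between the HFD-KO libraries (y axis) for genes with a mean of at least 5 CPM (grey) and the 10 periportal genes (red), with axes that end at 1.5 and leave 24 genes outside. Hal, Sdsl, Ctsc, Gls2, Cdh1, Etnppl and Pigr lie above the middle of the cloud, and Hal is also left of it.

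Leaving out a HFD-KO library moved the median of the members but not each gene alike: without HFD-KO 1 and without HFD-KO 2, Aldh1b1 stood at -0.43 and -0.44 and Cyp2f2 at -0.11 and -0.09, and Hsd17b13 moved the other way, at -0.52 and -0.34. The median log2 fold change of the 10 genes was -0.36 with HFD-KO 2 left out, when all 10 were below 0 and 3 passed the adjusted threshold (Aldh1b1, Ctsc and Etnppl). It was 0.24 with HFD-KO 1 left out, when 4 genes were below 0 and 4 passed the threshold (Hal and Ctsc higher, Aldh1b1 and Hsd17b13 lower). In these fits the lone HFD-KO library is assumed to vary like the HFD-WT pair, and 3.08% of all genes passed without HFD-KO 2 and 5.31% without HFD-KO 1. Aldh1b1 and Ctsc passed in both, Aldh1b1 lower each time and Ctsc in opposite directions.

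A wider list of periportal genes and a list of pericentral genes were set beside the members. Of 17 other periportal genes tested, 0 passed the adjusted threshold, 1 higher and 3 lower had an unadjusted p under 0.05, and 11 had a log2 fold change below 0, with a median of -0.06. The higher gene was Igf1, the growth factor that liver releases into blood (log2 fold change 0.24, adjusted p = 0.509 by edgeR). The lower genes were Sds, Uroc1 and Apoc2, an apolipoprotein that activates lipoprotein lipase, with 468 and 473 CPM in HFD-WT and 394 and 355 CPM in HFD-KO livers (log2 fold change -0.33, adjusted p = 0.367 by edgeR).

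The urea cycle genes of that list followed the order of Hal between the HFD-KO libraries: Cps1 had 1642 and 2314 CPM there, against 2190 and 1931 CPM in HFD-WT. Ass1 had 1925 and 2515 CPM in HFD-KO and 2706 and 2283 CPM in HFD-WT livers. Of the gluconeogenic genes, Pck1 and G6pc did not. Pck1 had 2720 and 2232 CPM in HFD-KO and 2367 and 2538 CPM in HFD-WT livers. G6pc had 378 and 245 CPM in HFD-KO and 170 and 255 CPM in HFD-WT livers. Both genes were higher in HFD-KO 1 than in HFD-KO 2. By edgeR, the log2 fold change was 0.01 for Pck1 (adjusted p = 0.983) and 0.55 for G6pc (unadjusted p = 0.0503, adjusted p = 0.556), and the groups of both overlapped. Fbp1 was slightly higher in HFD-KO 2, with 1007 and 1037 CPM in HFD-KO and 1054 and 1053 CPM in HFD-WT livers. Over the 17 genes, HFD-KO 1 was the lowest library for 10, against 23.8% of all genes tested, and HFD-KO 2 was higher than HFD-KO 1 for 12.

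Of 24 pericentral genes, 0 passed the adjusted threshold, 3 higher and 1 lower had an unadjusted p under 0.05, and 17 had a log2 fold change above 0, with a median of 0.08. Tbx3, a transcription factor under Wnt control, had 36.7 and 35.5 CPM in HFD-WT and 54.2 and 54.5 CPM in HFD-KO livers (by edgeR, log2 fold change 0.59 with a standard error of 0.080 and adjusted p = 0.069). Avpr1a, the vasopressin receptor of hepatocytes, had 5.87 and 5.24 CPM in HFD-WT and 11.0 and 13.5 CPM in HFD-KO livers (by edgeR, log2 fold change 1.14 with a standard error of 0.15 and adjusted p = 0.069). Both genes passed with DESeq2 (adjusted p = 0.00083 for Tbx3 and 0.00021 for Avpr1a) and in edgeR with no filter on low counts (0.0059 and 0.0011). Neither passed in edgeR with the library size alone (adjusted p = 0.099 and 0.078) or with the replicate number as a block (0.135 and 0.109). With 1 library left out, the log2 fold change lay between 0.57 and 0.61 for Tbx3 and between 0.98 and 1.28 for Avpr1a. Rnf43, a Wnt feedback gene, was higher by 0.34 and Slc13a3, a dicarboxylate transporter, was lower by a log2 fold change of -0.33, with adjusted p = 0.546 and 0.417 by edgeR. With 1 library left out, Rnf43 ranged from 0.16 (HFD-KO 1 left out) to 0.50 (HFD-WT 1 left out). Of 4 midlobular genes, 0 passed and Igfbp2, an IGF-binding protein, had 176 and 135 CPM in HFD-WT and 228 and 380 CPM in HFD-KO livers (log2 fold change 0.97, unadjusted p = 0.0037, adjusted p = 0.277 by edgeR). It was 0.56 without HFD-KO 2 and 1.29 without HFD-KO 1. Of 14 regulators of zonation, including Ctnnb1, Hnf4a and Gcgr, 0 passed the adjusted threshold and Tcf7l2, a nuclear partner of beta-catenin, was higher at an unadjusted p under 0.05 (log2 fold change 0.32, adjusted p = 0.421 by edgeR).

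Between the HFD-KO libraries the medians of the periportal and pericentral lists had opposite signs. The median log2 difference of HFD-KO 2 minus HFD-KO 1 was 0.42 over the 10 members, 0.14 over the 17 other periportal genes and -0.27 over the 24 pericentral genes. The median was also above 0 over the 7 hepatocyte markers, at 0.22, and over the 14 regulators of zonation, at 0.16. A median above 0 was thus not particular to the periportal lists. HFD-KO 1 was the highest library for 12 of the 24 pericentral genes, against 25.1% of all genes tested. Mean log2 CPM of a list was taken with 1 added to each CPM. For the 10 members minus the pericentral genes it was 0.64 and 0.71 in HFD-WT, 0.16 in HFD-KO 1 and 0.70 in HFD-KO 2. HFD-KO 1, the library with the high immunoglobulin level, was thus the lowest on this scale, and HFD-KO 2 lay within the HFD-WT values. With the 17 other periportal genes in place of the members, the difference was 3.28 and 3.37 in HFD-WT, 3.001 in HFD-KO 1 and 3.26 in HFD-KO 2, so that HFD-KO 1 was again the lowest but HFD-KO 2 lay just below both HFD-WT libraries. The part of the immunoglobulin markers in this difference was not tested.

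**Figure D5:**
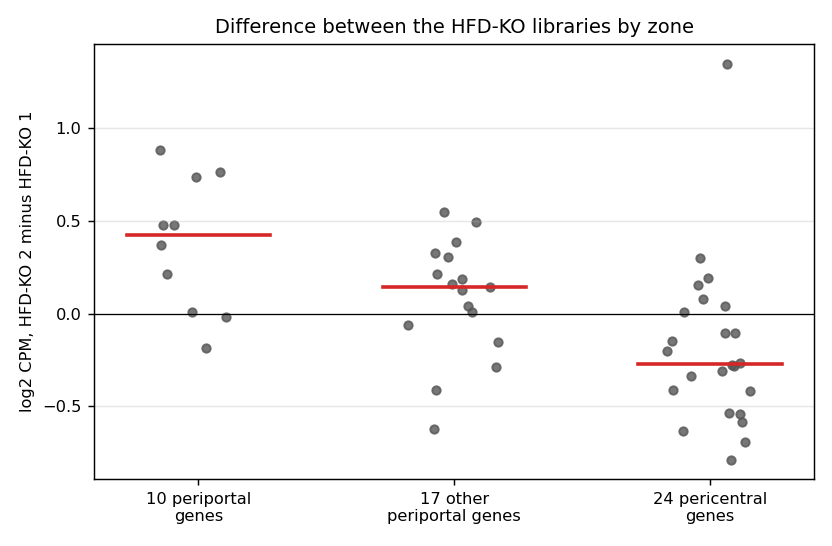
Log2 difference of HFD-KO 2 minus HFD-KO 1 for each of the 10 periportal genes, the 17 other periportal genes and the 24 pericentral genes, with the median of each list as a red line. The medians are 0.42, 0.14 and -0.27, and single genes of each list lie on both sides of 0.

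The remaining paralogs of the members showed no call either with all 4 libraries in the fit. Aldh2, the main mitochondrial aldehyde dehydrogenase, had 3001 and 2995 CPM in HFD-WT and 3081 and 2624 CPM in HFD-KO livers, so the difference of Aldh1b1 was not shared by its more abundant relative, although the contrast between both genes was not tested. Per length, Aldh1b1 stood at 0.0621 and 0.0633 of Aldh2 in HFD-WT and at 0.0450 and 0.0531 of it in HFD-KO livers. Aldh1a1, a cytosolic retinal dehydrogenase that is itself pericentral, had 1932 and 2119 CPM in HFD-WT and 2162 and 1488 CPM in HFD-KO livers. Agxt2, a mitochondrial aminotransferase, had 241 and 243 CPM in HFD-WT and 233 and 193 CPM in HFD-KO livers, with no overlap but a log2 fold change of only -0.19 (adjusted p = 0.664 by edgeR). Without HFD-KO 1 the log2 fold change was -0.44 for Aldh1a1 and -0.33 for Agxt2. Without HFD-KO 2 it was 0.09 and -0.06.

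Markers of further cell types were summed for the same libraries. Endothelial markers stood at 296 and 324 CPM in HFD-WT and 287 and 299 CPM in HFD-KO livers, and T and NK cell markers at 3.25 and 5.13 CPM in HFD-WT and 6.84 and 2.64 CPM in HFD-KO livers. All 7 T and NK cell markers tested were higher in HFD-KO 1 than in HFD-KO 2, by a median of 1.03 on the log2 scale. Stellate cell markers stood at 343 and 388 CPM in HFD-WT and 303 and 225 CPM in HFD-KO livers, lower in both HFD-KO libraries, and 4 of the 8 genes had an unadjusted p under 0.05. Hemoglobin and other red cell markers were highest in HFD-KO 2, at 1146 CPM against 811 CPM in HFD-KO 1 and 757 and 600 CPM in HFD-WT. The part of these markers in the spread of the periportal genes was not tested.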

How the data were processed

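RNA of 4 mouse livers or pools of livers was read as 2 HFD-WT and 2 HFD-KO libraries, grouped by the sample titles. RNA was extracted with TRIzol, and libraries were made with a directional MGI kit and sequenced as paired ends. The authors used an MGI Tech tool for trimming and alignment and counted genes in Partek Genomics Suite with GENCODE annotation. Versions, the use of strand and the treatment of reads with several positions are not given in the sources used here. The submitters' processing notes name GRCm39 and mm10. Gene positions printed here are those of the table: only 1 of the 10 members had the same position in GENCODE M21 (GRCm38), so they were taken as GRCm39. Promoter windows are on GRCm38.p6.

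The authors deposited raw counts per gene, which were tested. The deposited RPKM values were used to compare levels between genes. The deposited TPM values were not used, and neither was the deposited CPM column, entered as a score because its column sums are not the same in each library. CPM was computed here from the counts.

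Counts were fitted in R 4.3.3 with edgeR 4.0.16 (filterByExpr, TMM, quasi-likelihood test, two-sided), which kept 12967 of 25655 genes, all 10 members among them. The common biological coefficient of variation was 0.102. Intervals are 95% intervals from the moderated residual degrees of freedom. Alternatives were DESeq2 1.42.0 (Wald test), its size factors in edgeR, the library size alone, no filter beyond 1 count in some library, each library left out, and the replicate number as a block. The procedure was tested on simulated data. Named genes were every member, the listed paralogs, Adarb1, and, from up to 4 genes per direction of each other list with the smallest unadjusted p under 0.05, those that bear on the members. Amdhd1, Spryd4, Glul, Alb, Cps1, Ass1, Pck1, G6pc, Fbp1, Krt19 and Epcam were also named, after their values were seen. Ftcd, Ctnnb1, Hnf4a, Gcgr, Cftr and Ggt1 are named outside that rule as well. A paralog of a member was left out of the lists and is not reported here. The members and all lists were chosen with earlier results of these data known. Plots were drawn with matplotlib 3.10.9.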

Additional observations from a re-analysis of the deposited data

How the results depend on the processing

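The count of all genes past the adjusted threshold moved from 10 to 115 with DESeq2's Wald test, 162 with no filter on low counts, 6 with the library size alone and 20 with the replicate block, and ranged from 0 (HFD-WT 2 left out) to 705 (HFD-KO 1 left out). Of the 10 periportal genes, 2 passed with DESeq2's Wald test (Aldh1b1 and Hsd17b13) and 1 (Aldh1b1) with no filter, and with 1 library left out between 0 and 4 passed. The number with a log2 fold change below 0 then ranged from 4 to 10. With 1 library left out, the median log2 fold change ranged from -0.36 to 0.24 over the members, from -0.09 to 0.013 over the other periportal genes and from -0.04 to 0.15 over the pericentral genes. Genes near 0 changed sign: Hal ranged from -0.44 to 0.44, Gls2 from -0.19 to 0.29, Ctsc from -0.41 to 0.33, Sdsl from -0.44 to 0.32, Cdh1 from -0.10 to 0.38, Pigr from -0.026 to 0.19, Aldh2 from -0.19 to 0.039, Aldh1a1 from -0.44 to 0.093 and Cdh2 from -0.14 to 0.0092. Ctsc was -0.044 with the library size alone and -0.038 with the replicate block. Replicate numbers are shared by both genotypes, but no source says that they pair libraries, and the deviations of same-numbered libraries correlated at -0.087 across genes. The block changed no call of a member, and among the other genes of the naming rule it changed that of Adarb1 alone (adjusted p = 0.040 by edgeR). Why the settings differ was not tested. The naming rule took 48 genes, and apart from the members, the paralogs and Adarb1 it took them for their small unadjusted p. How many of them passed under some alternative was thus partly fixed in advance and is not read as a result. Every member had at least 233 reads in each library.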
